A study of Mus musculus with 9 samples.

Results

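The expression of 9 genes that mark fields of the hippocampus was examined in mouse brain RNA, out of 38621 genes in the deposited table. The genes were taken by name and not by their values. Of these, 5 mark granule cells of the dentate gyrus (Prox1, Dsp, C1ql2, Lct, and Tdo2), 3 mark pyramidal cells of the CA fields (Wfs1, Fibcd1, and Spink8), and Zbtb20 is shared by both. All 9 were among the 29025 genes that reached an RPKM of 0.1 in 3 or more samples and were tested. RPKM is the number of reads on the exons of a gene, scaled to the length of those exons and to the library total.

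The study asked how febuxostat, a xanthine oxidase inhibitor, acts on brain injury after intracerebral hemorrhage (ICH). All 9 samples were brain tissue of male C57BL/6 mice, with 3 sham, 3 ICH, and 3 feb samples. Each sample was a separate mouse according to the study. Sham mice had saline injected into the brain according to the methods, while their labels call them untreated. ICH mice had their own blood injected at a stereotaxic site anterior and lateral to bregma. Feb mice were given febuxostat by gavage once a day before the blood was injected, so the feb group also carries the hemorrhage and no group received febuxostat alone. The part of the brain taken for RNA, the time it was taken, and the age of the mice are not given in the sources used here.

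The hippocampus passes signals from the dentate gyrus through its mossy fibers to CA3 and on to CA1, and each of these fields keeps a set of marker genes in the adult. Granule cells are born into the dentate gyrus throughout life, with Prox1 present from an early stage and Dsp, Tdo2, and Calb1 known as genes of the mature cell. Several of the 9 genes are also used elsewhere in the brain. Prox1 is found in some interneurons and thalamic neurons, Wfs1 in upper cortical layers, the amygdala, and the ventral striatum, Dsp in the arachnoid, and Zbtb20 in astrocytes. In bulk tissue such as this, a lower share of cells of one type and less RNA per cell cannot be told apart.

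Between 23065757 and 29538009 reads per mouse were counted on genes. All 9 genes were detected in every mouse, and the reads on them ranged from 7 for Lct in sham replicate 2 to 12892 for Zbtb20 in ICH replicate 2. On the RPKM scale, which adjusts for exon length, the order of mean levels over the 9 mice was Wfs1 (26.5), Zbtb20 (12.6), Prox1 (10.4), C1ql2 (3.75), Spink8 (2.31), Fibcd1 (1.91), Dsp (1.83), Lct (0.374), and Tdo2 (0.150). This order depends on the exon length used, which was 30730 bases for Zbtb20 and 3787 for Wfs1. Wfs1 was above Zbtb20, Prox1 above C1ql2, and Dsp above Lct in 9 of 9 mice. The places of Spink8, Fibcd1, and Dsp were not distinct, since each was above the next in only 6 of 9 mice. Zbtb20 was above Prox1 in 7 of 9 mice, and Lct was above Tdo2 in 7 of 9.

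Prox1 encodes the homeodomain transcription factor that fixes granule cell identity (chromosome 1, 190118035 to 190170714 in GRCm38). Its RPKM was 8.68, 10.7, and 13.1 in sham, 5.48, 9.06, and 11.7 in ICH, and 15.6, 9.89, and 9.78 in feb mice. The 3 groups overlapped, and the highest and lowest of all 9 values were feb replicate 1 and ICH replicate 1. The sham, ICH, and feb means were 10.8 ± 2.21, 8.74 ± 3.11, and 11.8 ± 3.34 (SD, n = 3 each). An antisense gene, Prox1os, shares 133 exon bases with Prox1, 1.59% of its exon length, and the use of strand in counting is not stated.

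C1ql2 encodes a secreted C1q-like protein that mossy fibers release at their synapses (chromosome 1, 120340582 to 120343174). Its RPKM was 2.84, 2.20, and 4.04 in sham, 1.78, 6.39, and 2.39 in ICH, and 6.67, 3.70, and 3.75 in feb mice. ICH replicate 2 stood close to the highest feb mouse, while the other 2 ICH mice were within or below the sham range.

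Dsp encodes desmoplakin, which ties intermediate filaments to desmosomes (chromosome 13, 38151328 to 38198577). Its RPKM was 0.932, 0.493, and 1.96 in sham, 1.12, 1.88, and 1.49 in ICH, and 5.29, 0.712, and 2.61 in feb mice. The feb mice spanned 7.44-fold among themselves, and feb replicate 2 lay below all 3 ICH mice. Dsp reads numbered 1349 in feb replicate 1 and 173 in feb replicate 2. The antisense gene Gm10129 covers 465 exon bases of Dsp, but its own mean RPKM was 0.0890.

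Lct encodes lactase, the brush border enzyme of the gut that is also transcribed in dentate granule cells (chromosome 1, 128284756 to 128328318). Its RPKM was 0.259, 0.0418, and 0.344 in sham, 0.0765, 0.226, and 0.423 in ICH, and 1.53, 0.148, and 0.318 in feb mice. Lct varied most of the 9 genes, 36.7-fold over the 9 mice, and 8.24-fold among the sham mice alone. Tdo2 encodes tryptophan dioxygenase, the first enzyme of the kynurenine pathway (chromosome 3, 81957090 to 81976202). It was the lowest of the 9 genes, with 9 to 30 reads per mouse, and its RPKM was 0.105, 0.0887, and 0.202 in sham, 0.116, 0.127, and 0.157 in ICH, and 0.292, 0.133, and 0.134 in feb mice. For Lct and Tdo2 the highest mouse was again feb replicate 1 and the lowest sham replicate 2.

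Wfs1 encodes wolframin, a membrane protein of the endoplasmic reticulum that is abundant in CA1 pyramidal cells (chromosome 5, 36966104 to 36989205). Its RPKM was 12.3, 41.7, and 19.0 in sham, 19.7, 48.5, and 20.2 in ICH, and 24.3, 17.4, and 35.7 in feb mice. Sham replicate 2 and ICH replicate 2 were far above the other mice of their groups. The group means of Wfs1, 24.3 ± 15.5, 29.4 ± 16.5, and 25.8 ± 9.22 (SD, n = 3 each), differed by less than these SDs.

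Fibcd1 encodes an acetyl-group-binding membrane receptor for chitin and matrix glycans (chromosome 2, 31813290 to 31846005). Its RPKM was 1.84, 0.958, and 1.51 in sham, 1.31, 3.28, and 1.40 in ICH, and 2.55, 1.27, and 3.05 in feb mice. Spink8 encodes a Kazal-type protease inhibitor (chromosome 9, 109812280 to 109826633). Its RPKM was 1.28, 1.86, and 1.21 in sham, 1.64, 3.98, and 1.30 in ICH, and 3.17, 1.98, and 4.38 in feb mice. Every feb mouse was above every sham mouse for Spink8, by 1.98 against 1.86 at the nearest, while the ICH mice overlapped both groups. Spink8 has a short exon length of 821 bases, and its reads numbered 28 to 86 per mouse.

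Zbtb20 encodes a zinc finger repressor that is needed for CA1 identity (chromosome 16, 42875881 to 43642602). Its RPKM was 8.29, 11.9, and 9.72 in sham, 13.5, 16.0, and 11.8 in ICH, and 15.7, 10.2, and 16.3 in feb mice. Zbtb20 had the tightest values of the 9 genes, with a highest value 1.97 times the lowest. All ICH mice but replicate 3 were above all sham mice, and feb replicate 2 lay within the sham range. The microRNA gene Mir568 lies on the same strand within 83 exon bases of Zbtb20, which is 0.270% of its exon length.

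**Figure D1:**
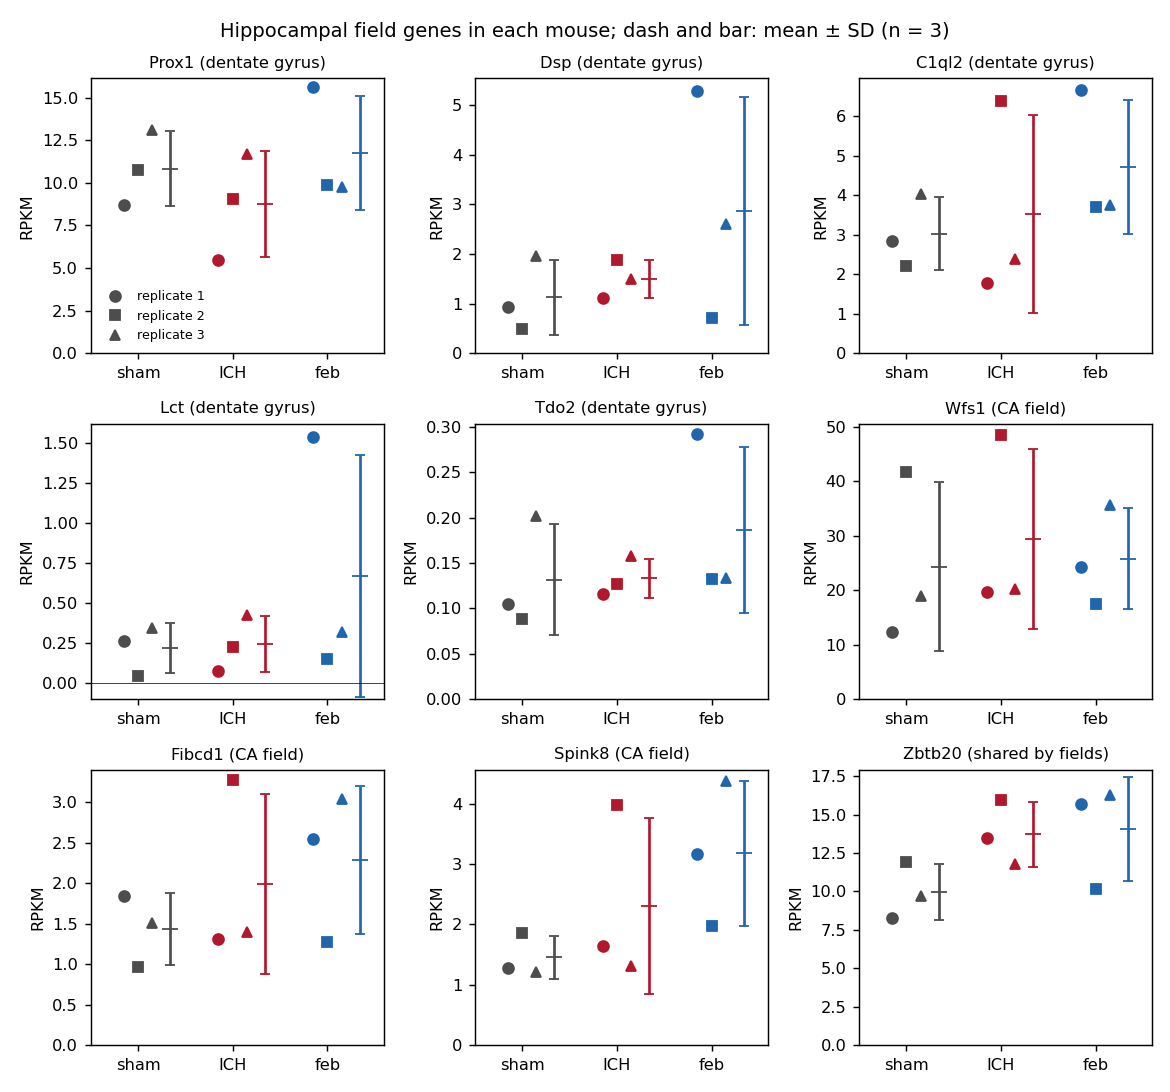
RPKM (vertical axis) of the 9 hippocampal field genes in sham, ICH, and feb mice (horizontal axis). Circles, squares, and triangles are replicates 1, 2, and 3, and the dash with its bar is the mean ± SD (n = 3). The groups overlap in every panel except feb against sham for Spink8, and feb replicate 1 is the highest point in all 5 dentate gyrus panels.

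The dentate gyrus genes were correlated over the mice, also after group means were removed, with feb replicate 1 highest for each. Feb replicate 1 was the highest of the 9 mice for 5 of 5 dentate gyrus genes, and sham replicate 3 ranked 2 or 3 for all 5. Sham replicate 2 was among the lowest 2 mice for 4 of 5. The mean log2(RPKM + 0.1) of the 5 genes was 0.19, -0.27, and 0.78 in sham, -0.21, 0.62, and 0.53 in ICH, and 1.70, 0.17, and 0.67 in feb mice. Across the 9 mice, the 10 pairs of dentate gyrus genes had a median Pearson correlation of 0.69 (0.47 to 0.90) and a median Spearman's rho of 0.68. After each gene's group means were removed, the median Pearson correlation was still 0.68 (0.54 to 0.87), so the correlations did not rest on the group means. These correlations describe 9 libraries that share 1 tissue piece per mouse for all genes, and no test was made of them. Feb replicate 1 stood 0.63 to 2.16 log2 units above the gene means, and the correlations were not computed without it. How far they rest on this mouse, and how gene pairs in general correlate, was not tested. The rho of Prox1 with Dsp was only 0.38.

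The 3 CA field genes were high in other mice. ICH replicate 2 was highest or second for 3 of 3 CA field genes, and feb replicate 3 ranked from 1 to 3. The mean log2 level of the 3 genes was 3.13 in ICH replicate 2 and 2.99 in feb replicate 3, against 1.68 to 2.57 in the other 7 mice. Pairs within the CA field had a median Pearson correlation of 0.72 (0.35 to 0.77, 3 pairs, 9 mice, median rho 0.43). Pairs of a CA field gene with a dentate gyrus gene had a median of 0.25 (-0.14 to 0.75, 15 pairs, median rho 0.22). The pairs formed by Fibcd1 with C1ql2 and with Dsp were the closest across fields, with a Pearson correlation of 0.75 each. Zbtb20 was closer to the CA field genes, with 0.60 to 0.85, than to the dentate gyrus genes, with 0.02 to 0.58. The division by field was not seen in 6 other granule cell genes, whose mean log2 level had a Pearson correlation of 0.53 with the dentate gyrus genes, 0.71 with the CA field genes, and 0.87 with Zbtb20. With the dentate gyrus and CA field genes, other CA1 genes had -0.10 and 0.71, and CA2 genes 0.37 and 0.54. CA3 genes had 0.53 and 0.09, so the 3 CA field genes followed the other CA1 genes and not CA3.

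**Figure D2:**
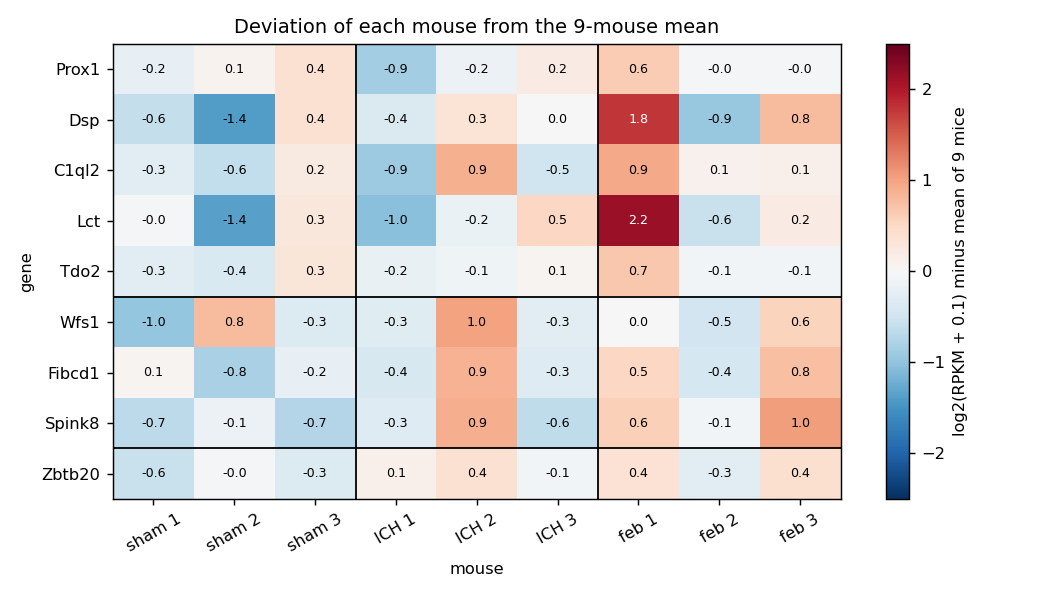
Deviation of log2(RPKM + 0.1) from the mean of the 9 mice (color scale and printed numbers, log2 units) for each gene (rows) and mouse (columns), with black lines between gene groups and between groups of mice. Feb replicate 1 is above the mean in all 5 dentate gyrus rows, from 0.63 to 2.16, and ICH replicate 2 is above it by at least 0.86 in the 3 CA field rows.

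The share of the variance of log2 values that lay between the groups was small for most genes. It was 4.88% for Wfs1, 18.3% to 24.3% for the 5 dentate gyrus genes, 19.9% for Fibcd1, 42.7% for Spink8, and 46.0% for Zbtb20. The rest lay among mice of the same group. Group differences were tested with limma on log2(RPKM + 0.1) over all genes, and a gene was called where it met both criteria of the study, a change of more than 2-fold and an unadjusted p-value below 0.05.

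The first contrast asks what ICH changed relative to sham. None of the 9 genes was called in limma, none had an unadjusted p-value under 0.05, and 0 of 9 had groups without overlap. With voom on the reads behind the RPKM values, 0 of 9 were called and 1, Zbtb20, had an unadjusted p-value under 0.05. Of all genes tested, 2.53% were called in this contrast, and 19.4% had groups without overlap. An unadjusted p-value under 0.05 in limma was found for 3570 of the 29025 genes. The calls over all genes were 423 higher and 312 lower, but 296 higher and 443 lower when the samples were scaled to equal medians. The median difference of the 9 genes was 0.33 on the log2 scale, beside 0.08 for all genes, and after scaling to equal medians these were 0.22 and -0.03. The median of the 9 genes rested on single mice, since it was 0.10 without sham replicate 2, 0.034 without ICH replicate 2, 0.55 without ICH replicate 1, and 0.53 without ICH replicate 3.

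Prox1 was the gene with a lower mean after ICH, at -0.35 (standard error 0.29, 95% confidence interval -1.02 to 0.32, adjusted p = 0.612 in limma). The other 8 estimates were from 0.04 to 0.54, although those of C1ql2 and Tdo2 turned to -0.07 each with equal medians and that of C1ql2 to -0.03 with voom. Zbtb20 came nearest to a difference, at 0.46 (standard error 0.21, interval -0.02 to 0.94, adjusted p = 0.411 in limma, two-sided exact permutation p = 0.2). The interval of Lct (-1.57 to 1.84) held 2-fold changes either way, and that of Dsp reached 2.07. Those of Tdo2 (-0.69 to 0.76) and Zbtb20 stayed inside a 2-fold change either way. For Tdo2, with a mean RPKM of 0.150, the added 0.1 narrows the interval. It therefore does not exclude a 2-fold change in the RPKM of Tdo2. Without ICH replicate 1, the lowest mouse for Prox1, its difference was -0.055. Single mice also decided the sign of several small estimates. Without ICH replicate 2, C1ql2 was at -0.49, Wfs1 at -0.10, and Fibcd1 at -0.04. Without sham replicate 2, C1ql2 was at -0.16, Lct at -0.36, and Tdo2 at -0.09. Without sham replicate 1, Tdo2 was at -0.04 and Wfs1 at -0.07, and without ICH replicate 3, Lct was at -0.24 and Tdo2 at -0.03.

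The second contrast asks what febuxostat changed in mice with ICH. In limma, 0 of 9 genes were called for feb against ICH, 0 had an unadjusted p-value under 0.05, and 0 had groups without overlap, and voom gave the same counts of 0 called and 0 under 0.05. The background was 2.43% of genes called and 17.2% without overlap, with 3212 of 29025 genes at an unadjusted p-value under 0.05 in limma. The median difference of the 9 genes was 0.45 on the log2 scale, beside -0.01 for all genes, but it was 0.052 without feb replicate 1 and 0.20 without ICH replicate 1.

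The 5 dentate gyrus genes had estimates of 0.25 to 0.83, with Lct the highest at 0.83 (standard error 0.75, interval -0.87 to 2.54, adjusted p = 0.697 in limma). These estimates leaned on feb replicate 1. Without that mouse, Dsp was at -0.08, Lct at 0.05, and Tdo2 at 0.0031. In the other direction, Dsp was called without feb replicate 2 at 1.29, and C1ql2 was called without ICH replicate 2 at 1.10. Among the CA field genes, Spink8 was at 0.54 (standard error 0.42, interval -0.42 to 1.498, adjusted p = 0.652 in limma) and Fibcd1 at 0.23 (-0.02 without feb replicate 3). Wfs1 was at -0.12, turning to 0.31 without ICH replicate 2 and to 0.13 without feb replicate 2. Zbtb20 was at 0.02 with the narrowest interval, -0.46 to 0.49, and its sign turned without ICH replicate 3 (-0.09), feb replicate 1 (-0.08), or feb replicate 3 (-0.11).

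The third contrast compares the feb mice, which had both drug and hemorrhage, with sham mice. Here 1 of 9 genes, Spink8, was called, and it was also the one gene of the 9 whose groups did not overlap. Over all genes, 2.2% were called and 12.7% had groups without overlap, so that 1 of 9 is close to the latter share. Among the 29025 genes, 2478 had an unadjusted p-value under 0.05 in limma. The calls over all genes were 461 higher and 178 lower, or 300 higher and 252 lower with equal medians. Spink8 was 2.05-fold higher in feb mice, a log2 difference of 1.03 (standard error 0.42, interval 0.07 to 1.99, adjusted p = 0.582 in limma, two-sided exact permutation p = 0.1, the smallest that 3 against 3 allows). The call was lost without sham replicate 1 (0.96), sham replicate 3 (0.93), feb replicate 1 (0.9999, just short of 2-fold), or feb replicate 3 (0.77), and with equal medians (0.92). It was also lost with a pseudocount of 1 (0.74), while voom called it at 1.02. The adjusted p ranged from 0.276 to 1 over the alternatives. With voom, 2 of 9 genes, Spink8 and Zbtb20, had an unadjusted p-value under 0.05.

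The other 8 genes were between 0.10 and 1.08 above sham in the feb group, although Prox1 turned to -0.01 with equal medians. Dsp had the largest estimate, 1.08 (standard error 0.67, interval -0.46 to 2.62, adjusted p = 0.665 in limma), and was called at 1.83 without feb replicate 2. Without feb replicate 1 it was 0.46, Lct 0.19 in place of 0.97, and Prox1 -0.12. Zbtb20 was at 0.48 (standard error 0.21, adjusted p = 0.585 in limma), with an unadjusted p of 0.0501. Prox1 was at -0.05 without sham replicate 1, and Wfs1, at 0.21, turned to -0.19 without that mouse and to -0.05 without feb replicate 3. The median of the 9 genes was 0.60, beside 0.05 for all genes, and with equal medians these were 0.49 and -0.06. Without feb replicate 1 the median of the 9 genes was 0.33. Each group enters 2 of the 3 contrasts, so the contrasts are not independent.

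**Figure D3:**
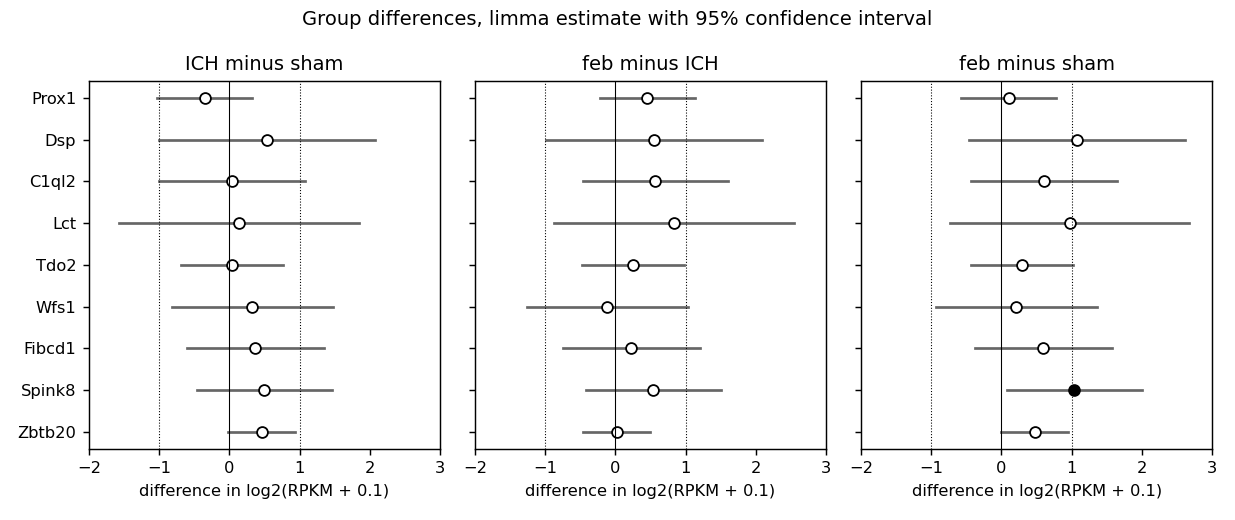
Difference in log2(RPKM + 0.1) (horizontal axis) for each gene (vertical axis) in the 3 contrasts, with points for the limma estimate and lines for its 95% confidence interval. Dotted lines mark a 2-fold change, and the filled point, Spink8 in feb minus sham, is the gene called.

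A wider set of 19 hippocampal genes, listed by name for granule cells, CA1, CA2, and CA3, was read in the same fit. Between ICH and sham, 2 of the 19 were called higher and 0 lower, with a median log2 difference of 0.32. Over all genes, 2.53% were called in this contrast. The groups did not overlap for 3 of the 19, beside 19.4% of all genes. Mpped1, a CA1 gene that the cortex also expresses, was 4.04, 3.46, and 2.43 in sham and 8.59, 10.5, and 4.88 RPKM in ICH mice, without overlap. It rose by 1.21 on the log2 scale (standard error 0.36, adjusted p = 0.345 in limma), or 0.98 without ICH replicate 2, when it was no longer called. Rgs14, a G protein regulator that marks CA2, was 1.55, 7.08, and 2.87 in sham and 7.84, 9.70, and 6.01 in ICH mice. It rose by 1.25 (standard error 0.51, adjusted p = 0.390 in limma), with the call lost without sham replicate 1 (0.76), sham replicate 3 (1.18), ICH replicate 1 (1.24), or ICH replicate 2 (1.09). The other CA2 genes did not share this rise, with Amigo2 at -0.33, Cacng5 at -0.10, and Map3k15 at 0.28. The median of the 4 CA2 genes was 0.09.

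In limma, 0 of the 19 genes were called between feb and ICH and 0 between feb and sham, where 2 and 1 had an unadjusted p-value under 0.05. Among all 29025 genes, 3212 and 2478 were under 0.05 in limma in these contrasts. Voom called 0 and 1 of the 19, with 4 and 2 under 0.05. The median log2 differences of the 19 genes were -0.08 from ICH and 0.30 from sham. Tyro3, a receptor kinase enriched in CA1, was 0.69 lower in feb than in ICH mice without overlap (adjusted p = 0.338 in limma, exact permutation p = 0.1). Grik4, a kainate receptor subunit of CA3, was 0.67 higher in feb than in sham mice without overlap (adjusted p = 0.565 in limma, exact permutation p = 0.1). Tyro3 and Grik4 were each the only gene of the 19 without overlap in their contrast. Of all genes, 17.2% and 12.7% had no overlap in these contrasts. Bok, the most abundant CA3 gene of the list, was 10.3 ± 2.73, 10.2 ± 2.78, and 12.8 ± 0.859 RPKM (SD, n = 3 each). For the 6 other granule cell genes, limma and voom each made 0 calls in the 3 contrasts, with 0 unadjusted p-values under 0.05 and median differences of 0.41, -0.05, and 0.30. Calb1, which encodes the calcium buffer calbindin and is the most abundant of them, had an RPKM of 10.9 ± 4.14, 13.7 ± 1.78, and 13.3 ± 4.10 (SD, n = 3 each) in sham, ICH, and feb mice. The 5 genes of immature granule cells and other newborn neurons also had 0 calls by limma or voom, with 1 unadjusted p-value under 0.05 between ICH and sham by each and 0 elsewhere. The most abundant of these, Calb2, was 76.8 ± 37.2, 54.5 ± 24.1, and 71.1 ± 22.9 (SD, n = 3 each). Eomes and Igfbpl1 of the same list had mean RPKM values of only 0.307 and 0.381 over the mice. Calb2 was highest in sham replicate 3 and lowest in ICH replicate 2, as was the mean of the thalamic list described below. Which cells gave the Calb2 reads was not tested.

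The mean levels of the striatal and thalamic lists varied more over the mice than those of the dentate gyrus or CA field genes. The mean of the cortical list varied less than those of the dentate gyrus and CA field genes. These means cover different numbers of genes. Single genes could vary further, as Lct did, from -1.36 to 2.16 log2 units about its mean. The mean log2 level of 7 striatal genes ranged over 3.19 units, from 1.72 in sham replicate 1 to 4.91 in sham replicate 2, and that of 6 thalamic genes over 2.48 units, from 2.44 in ICH replicate 2 to 4.91 in sham replicate 3. The corresponding ranges were 1.97 for the dentate gyrus genes, 1.45 for the CA field genes, 1.32 for 7 cortical genes, and 0.97 for Zbtb20. Wfs1 moved with the striatal list, with a Pearson correlation of 0.73 and a rho of 0.85 over the 9 mice, while Fibcd1 had a Pearson correlation of -0.01 with it. Zbtb20 had 0.66 with the striatal list (rho 0.53) and -0.61 with the thalamic list (rho -0.60). Prox1 had 0.54 with the thalamic list (rho 0.72) and -0.69 with the meningeal list (rho -0.78). The CA field mean was low where the thalamic list was high, with a Pearson correlation of -0.69 and a rho of -0.43. The part of these regional differences in the values of the 9 genes was not tested.

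Some of these lists also moved with the groups. The cortical list was 3.03 to 3.19 in ICH mice, above the sham range of 1.88 to 2.79 and the feb range of 2.66 to 2.89. Its median difference between ICH and sham was 0.19, with the other 4 genes from -0.14 to 0.19, while 3 of its 7 genes were called higher, Slc17a7, a vesicular glutamate transporter, by 1.54 on the log2 scale, Tbr1, a cortical transcription factor, by 1.82, and Neurod6. Adjusted p-values of these 3 calls were 0.277 to 0.387 in limma, and 2.53% of all genes were called in this contrast. Neurod6 is shared by cortical and CA pyramidal cells and was 10.4, 0.925, and 1.22 in sham, 7.30, 29.7, and 6.54 in ICH, and 16.3, 14.8, and 21.4 RPKM in feb mice. Neurod6 was 2.84 higher on the log2 scale in feb than in sham mice, without overlap (standard error 0.88, adjusted p = 0.565 in limma). Its call between ICH and sham, at 2.23, was lost without sham replicate 2 (1.61), sham replicate 3 (1.79), or ICH replicate 2 (1.53). The fit of the 2 groups compared also lost it (unadjusted p = 0.0658 in limma).

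Tbr1 was also called lower in feb than in ICH mice, at -1.48 (adjusted p = 0.302 in limma). Tcf7l2 was the 1 of 6 thalamic genes called between ICH and sham in limma, where voom called 3. Tcf7l2 fell by 1.61 (adjusted p = 0.382 in limma). Its call was lost without sham replicate 1 (-1.51), sham replicate 3 (-1.47), ICH replicate 1 (-1.55), or ICH replicate 2 (-1.14). The striatal list had 0 calls and 0 unadjusted p-values under 0.05 in the 3 contrasts, in limma and voom, and median differences of 0.95, -0.44, and 0.52. Its most abundant gene, Ppp1r1b, was 94.3 ± 82.4, 141 ± 55.2, and 122 ± 54.2 RPKM (SD, n = 3 each) in sham, ICH, and feb mice. The choroid plexus list, whose mean log2 level was -0.34 to 0.48 in feb mice against 1.61 to 2.84 in the other 6 mice, had 8 of 8 genes called lower in feb than in ICH mice. These were Ttr, which encodes transthyretin, at -3.92, Kcne2 at -3.27, Folr1 at -2.92, Slc4a5 at -2.54, Aqp1 at -2.24, Kl at -2.19, Sostdc1 at -1.93, and Clic6 at -1.16. Their adjusted p-values were 0.105 to 0.213 in limma. Over all genes, 2.43% were called in this contrast. The call of Clic6 was lost without feb replicate 2 (-0.97) and that of Aqp1 with a pseudocount of 1 (-0.91). Of the 6 meningeal genes, 1 was called lower, Igf2 (-1.12, adjusted p = 0.378 in limma). It was not called without ICH replicate 1 (-0.82), without feb replicate 1 (-0.95), or with a pseudocount of 1 (-0.97). Against sham, 7 of 8 choroid plexus genes, all but Clic6 (-0.94), and 2 of 6 meningeal genes, Igf2 (-1.11) and Col1a1 (-1.10), were called lower in feb mice. Adjusted p-values of these calls were 0.133 to 0.580 in limma, and 2.2% of all genes were called in this contrast. With a pseudocount of 1, Kl (-0.84), Aqp1 (-0.73), Slc4a5 (-0.98), Igf2 (-0.96), and Col1a1 (-0.77) were not called. Leaving out sham replicate 1 or 3 or feb replicate 1 also ended both of these meningeal calls. Igf2 was then at -1.02 to -0.79 and Col1a1 at -1.07 to -0.69. The call of Col1a1 was lost as well without feb replicate 3 (-1.04). The fit of the 2 groups compared also lost it (unadjusted p = 0.0558 in limma). Dsp, which the meninges can also express, had a Pearson correlation of -0.29 with the meningeal list, which was lowest in feb replicate 1, the mouse with the most Dsp. The astrocyte list, relevant to Zbtb20, was 5.34 to 5.42 in feb, 5.52 to 5.59 in sham, and 5.60 to 5.76 in ICH mice, without overlap, and 3 of its 5 genes were lower in every feb than in every ICH mouse. Of all genes, 17.2% had no overlap between feb and ICH mice. The astrocyte list ranged over 0.42 log2 units, with 0 calls by limma or voom and 1 unadjusted p-value under 0.05 per contrast in limma, and its Pearson correlation with Zbtb20 was 0.03. The astrocyte gene with the highest level, Slc1a2, was 173 ± 20.3, 207 ± 8.35, and 184 ± 15.1 RPKM (SD, n = 3 each).

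**Figure D4:**
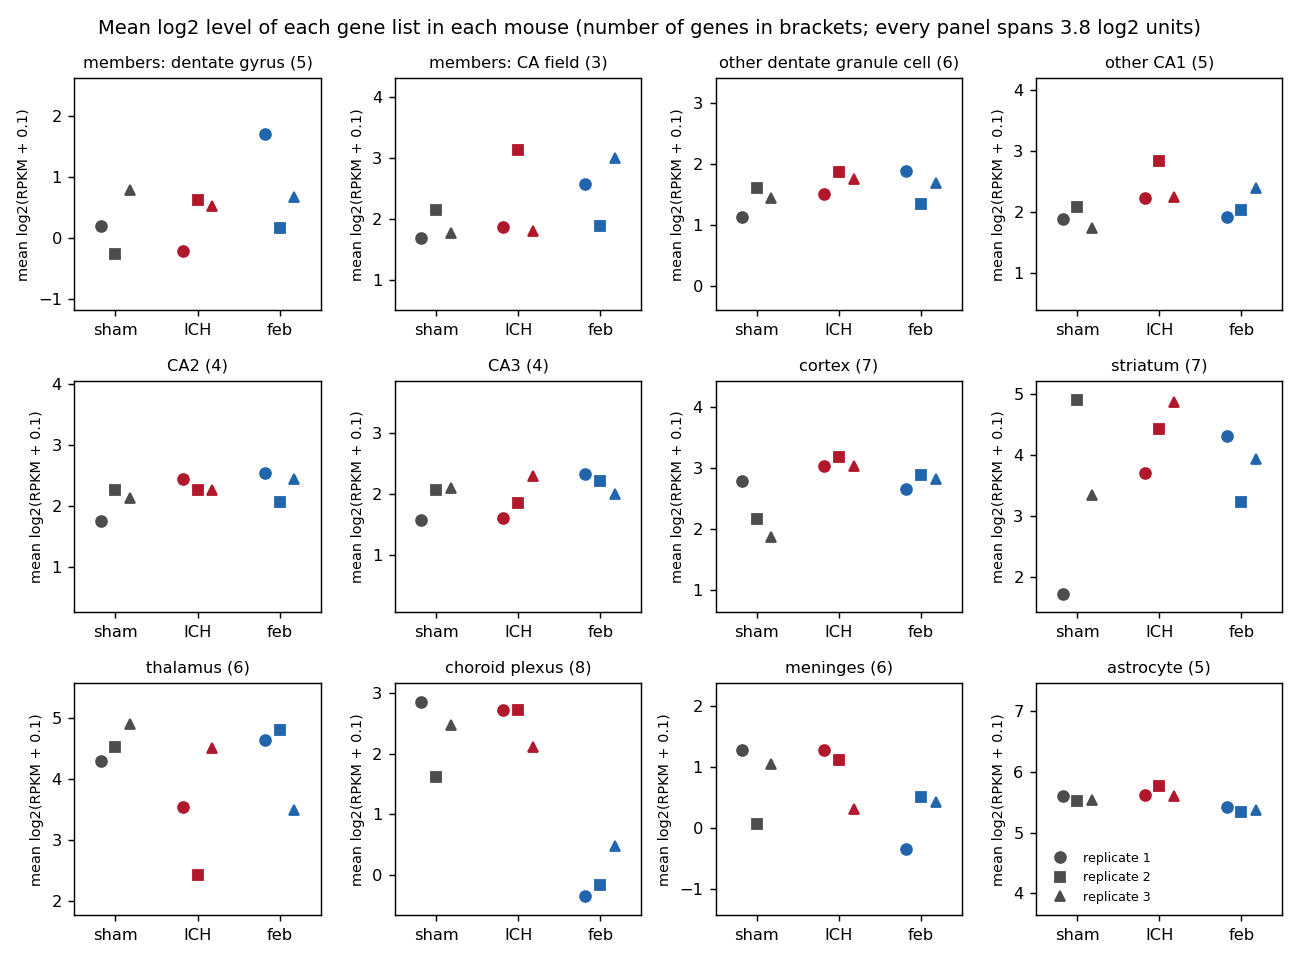
Mean log2(RPKM + 0.1) of each gene list (vertical axis, every panel spanning the same number of log2 units) in sham, ICH, and feb mice (horizontal axis), with 1 point per mouse and the symbols of the replicate numbers. The striatal and thalamic lists spread by 3.19 and 2.48 units over the mice, the CA2 and CA3 lists by 0.79 and 0.76, and the choroid plexus list is low in all 3 feb mice.

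Of the 17654 other tested genes with a mean RPKM of at least 1, those closest to the mean log2 level of the dentate gyrus genes over the 9 mice were Gm20458, Dbndd2, and Snx1, with Pearson correlations of 0.94, 0.93, and 0.92 (rho 0.87, 0.92, and 0.97). Dbndd2 was 64.4 RPKM in feb replicate 1 and 31.5 to 49.9 in the other mice. Closest to the CA field genes were Arrdc4, Rae1, and Sipa1l3, with 0.98, 0.95, and 0.95 (rho 0.85, 0.95, and 0.80). Sipa1l3 was 7.56 RPKM in ICH replicate 2 and 7.14 in feb replicate 3, the same 2 mice in which the CA field genes were highest. As the best of many candidates over only 9 mice, these values are a description.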

How the data were processed

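Per the labels and the methods, the authors depleted ribosomal RNA, trimmed reads with Trimmomatic 0.36, merged reads sharing a UMI to a consensus, mapped them to GRCm38, and counted them over exons by featureCounts (Subread 1.5.1). The deposited values are RPKM. Strand setting and handling of multi-mapped reads are not given in the sources used here. RPKM times exon length gave whole reads for 100% of values (tolerance 0.01 reads), with totals from 23065757 to 29538009.

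Limma 3.58.1 in R 4.3.3 (lmFit, eBayes with a mean trend) was fitted to log2(RPKM + 0.1) of 29025 genes, with all 9 samples in the fit and Benjamini-Hochberg adjustment over all genes. This scale understates changes of genes near 0.1 RPKM. The edgeR test of the study was not run here. Permutation tests of 3 against 3 were exact and two-sided and cannot go below 0.1. Tables were made with scipy 1.17.1, pandas 2.3.3, and numpy 2.4.6 under Python 3.11.15. The fit was tested on simulated reads, with changes placed only in well-counted genes and with a spread not taken from these mice. That test does not bear on Tdo2 or on the spread seen here.

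The 9 genes and the lists were chosen by name with earlier results of these data known. Named were the 9 genes, list genes called in a contrast, otherwise the most abundant gene of a list, and the 3 genes closest to each field's mean. Tyro3 and Grik4 were picked after their values were seen. Alternatives were pseudocounts of 1 and 0.01, the low-value filter removed or raised to an RPKM of 1, equal medians, voom with TMM factors on the recovered reads, fits of the 2 groups compared, the replicate number as a block, and each sample left out.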

Additional observations from a re-analysis of the deposited data

How the results depend on the processing

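Of 453 estimates of the 9 genes under alternatives, 418 kept their direction and side of the criteria, 25 changed sign, 3 were newly called, and 7 lost the call of Spink8. The causes were not tested. Some alternatives could not change an estimate or its sign. These were another filter, the 2 groups alone, the replicate block, and leaving out a mouse of the third group. The 418 therefore overstate the stability of the estimates. With equal medians, C1ql2 and Tdo2 between ICH and sham were at -0.070 and -0.069 and Prox1 between feb and sham at -0.0092, and with voom C1ql2 between ICH and sham was at -0.032. With 1 mouse left out, estimates that changed sign ranged between ICH and sham from -0.49 to 0.40 for C1ql2, -0.36 to 0.55 for Lct, -0.094 to 0.24 for Tdo2, -0.099 to 0.81 for Wfs1, and -0.035 to 0.60 for Fibcd1. Between feb and ICH they ranged from -0.078 to 1.29 for Dsp, -0.38 to 0.31 for Wfs1, -0.015 to 0.63 for Fibcd1, and -0.11 to 0.23 for Zbtb20, and between feb and sham from -0.12 to 0.25 for Prox1 and -0.19 to 0.69 for Wfs1. Over all genes, the counts called between ICH and sham, feb and ICH, and feb and sham were 735, 706, and 639. They were 158, 128, and 91 with a pseudocount of 1, and 346, 287, and 263 with an RPKM of at least 1, where fewer genes were tested and Lct and Tdo2 were not. With 1 mouse left out they ranged from 619 to 1299, 615 to 932, and 462 to 1150, with 1299 and 1150 without sham replicate 2 and 1030 between feb and sham without feb replicate 2. Adjusted p-values under 0.05 were found for 7, 2, and 1 genes, none of the 9. Replicate numbers are shared by the groups in the labels only. Deviations of same-numbered samples correlated from -0.13 to 0.02, and those of differently numbered samples from -0.12 to 0.17. These values show no pairing of the mice by number but cannot exclude a weak one. With the replicate block, 717, 684, and 615 genes were called, 0 with an adjusted p-value under 0.05, and the calls of Spink8 (unadjusted p = 0.0599 in limma), Rgs14 (0.0574), Tcf7l2 (0.0545), Neurod6 between ICH and sham (0.0504), and Col1a1 (0.0594) were lost. Precision is limited by 3 mice per group and, for Tdo2 and Spink8, by at most 30 and 86 reads.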
